A study of Mus musculus with 12 samples.

Results

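The genes described are the mouse zinc finger genes named Zfp900 to Zfp999. They were chosen by name: every protein-coding gene of the GENCODE M21 annotation (build GRCm38) whose symbol lies in that range and whose Ensembl identifier has a row in the gene table. The annotation holds 63 such genes, and 39 of them are listed among the 35666 genes of the table. RNA was sequenced from gonocytes, the male germ cells present before and around birth, isolated from mice that all carry the Mvh-Venus transgene. Mvh, also called Ddx4, is a germ cell gene, and Venus is a fluorescent protein. The comparison is between 3 libraries of Morc1 (+/-) mice (het) and 3 libraries of Morc1 (-/-) mice (KO), both at postnatal day 0 (P0). The controls are thus heterozygous and not wild type. The labels do not give the number of animals behind a library, so the p-values measure the spread between these libraries, which may be technical. Libraries of postnatal day 3 were not analysed here.

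Most proteins of this name carry a KRAB domain in front of a row of C2H2 zinc fingers. The fingers bind DNA, often within a transposable element (TE), and the KRAB domain recruits TRIM28, which brings SETDB1, the enzyme that writes the silencing mark H3K9me3. The genes duplicate often and lie in clusters, and genes of this kind are themselves marked by H3K9me3 in many cell types. MORC1 is a germ cell ATPase that acts in the silencing of TEs.

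Values are normalized counts, which are reads divided by one size factor per library. The libraries held 28363683 to 32816861 reads in listed genes. Morc1 was measured at 7248, 7485 and 4126 in the het and at 1360, 1343 and 1794 in the KO libraries. Its log2 fold change was -2.03 (limma adjusted p = 0.0109), and p was 0.1 by an exact permutation of the 6 values (two-sided), the lowest possible with 3 against 3. Ddx4 and Dazl, defining germ cell genes, stood at 17605 to 31038 and at 48158 to 72571 over the 6 libraries. Of 10 germ cell markers none was at 0. Their sum ranged from 97691 to 154877 in het and from 110198 to 167031 in KO. Het replicate 3 was the lowest of the 6 libraries for this sum, for Ddx4 and for Dazl. None of the markers of other cells was called, and none was at 0 in all libraries. The 7 Sertoli cell markers summed to 17536 to 37259 in het, the highest being het replicate 3, and 12581 to 18099 in KO. All 7 fold changes were negative. The 5 Leydig cell markers summed to 776 to 24921 in het, the highest being het replicate 3, and 510 to 1075 in KO, again with all 5 negative. The 9 blood, vessel and myoid markers summed to 3178 to 3720 and 3044 to 4576. The part of these cells in the values below was not tested, and in such bulk RNA fewer cells of a type and less RNA per cell cannot be told apart.

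Most of the 39 genes encode a KRAB domain and a row of fingers. A search of the annotated coding sequences for the C2H2 pattern found up to 21 fingers, with a median of 11. Zfp974, with 21, holds the most. Zfp957 and Zfp972 held no complete finger. A pattern for the core of the KRAB domain was found in 34 of 39, and not in Zfp952, Zfp956, Zfp957, Zfp972 and Zfp974. Lengths ran from 139 residues for Zfp972 to 794 for Zfp945.

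The 24 annotated genes of the name range without a row in the table used here also share features. Of these, 7 lie on chromosome 2 between 175372436 and 177478129, and 15 lie on chromosome 4 between 145510759 and 147809788. The other 2 are Zfp935 on chromosome 13 and Zfp936 on chromosome 7. Their transcripts have closer relatives than those of the listed genes. The best match to any other annotated gene had a median identity of 95.5% over a median of 93.4% of the transcript, against 88.8% over 53.5% for the 39 listed genes. Identity of at least 90% over at least 50% of the transcript was found for 20 of 24 genes without a row and for 10 of 39 with one. Every listed gene of the table had at least 10 reads over the 6 libraries. The counts of the genes without a row are not known, and whether they fell under a minimum was not tested. How reads that match several genes were counted is not given in the sources used here, and the part of sequence identity in which genes are listed was not tested. What follows is therefore about the listed genes and not about all genes of the name range.

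Promoter windows of RefSeq (GRCm38.p6), which run from 250 bases before to 50 after a transcript start, were found for 36 of the 39 genes, with 41 windows in all. The strings searched on both strands were CCGGAA (the core of ETS factor motifs), GGGCGG (the core of the Sp1 motif), TGACGT (the core of the CRE motif) and TATAAA (the TATA box). Each string was counted by itself, and matches of different strings may overlap. CCGGAA stood in 18 of the 36 genes. It stood in 36.7% of the other protein-coding Zfp genes listed and in 20.9% of all protein-coding genes. Counted by window, it stood in 56.1% of the 41 windows and in 14.9% of all windows of this length. GGGCGG stood in 11 of 36 genes (30.6%, against 49.2% of protein-coding genes and 35.7% of all windows). TGACGT stood in 8 (22.2%, against 9.60% and 7.51%). TATAAA stood in 0 of 36, against 14.8% of protein-coding genes and 13.6% of all windows. In the other protein-coding Zfp genes listed, GGGCGG stood in 48.75%, TGACGT in 11.25% and TATAAA in 9.58%. Shares given for all windows count windows and not genes. The median number of CpG dinucleotides per window was 9, against 13 for protein-coding genes, 16 for the other Zfp genes and 7 for all windows. Such matches are descriptions of letters and not of bound sites.

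The windows of 4 genes described below are shown. Zfp943 and Zfp942 start 87 bp apart on opposite strands and their windows overlap. Zfp937 and Zfp958 were picked as the tested genes with the lowest p by limma, and although they lie on different chromosomes their windows share a run of 16 bases. Capitals mark CCGGAA or its reverse complement and, in the last 2 windows, the shared run. The windows are chr17:21962309-21962608 on the plus strand for Zfp943, chr17:21962415-21962714 on the minus strand for Zfp942, chr2:150217849-150218148 on the plus strand for Zfp937 and chr8:4612920-4613219 on the plus strand for Zfp958, each read 5′ to 3′.
Zfp943: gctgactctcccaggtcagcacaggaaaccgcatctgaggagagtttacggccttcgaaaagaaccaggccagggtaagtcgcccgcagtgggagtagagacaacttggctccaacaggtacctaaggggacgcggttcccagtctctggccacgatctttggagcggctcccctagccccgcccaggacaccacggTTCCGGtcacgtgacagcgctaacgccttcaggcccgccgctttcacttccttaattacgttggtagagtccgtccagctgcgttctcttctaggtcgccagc
Zfp942: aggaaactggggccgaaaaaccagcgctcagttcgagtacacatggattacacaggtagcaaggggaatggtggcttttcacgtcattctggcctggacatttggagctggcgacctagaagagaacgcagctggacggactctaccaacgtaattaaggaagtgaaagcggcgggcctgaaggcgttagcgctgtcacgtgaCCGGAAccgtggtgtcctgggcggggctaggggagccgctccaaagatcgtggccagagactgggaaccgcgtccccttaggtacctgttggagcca
Zfp937: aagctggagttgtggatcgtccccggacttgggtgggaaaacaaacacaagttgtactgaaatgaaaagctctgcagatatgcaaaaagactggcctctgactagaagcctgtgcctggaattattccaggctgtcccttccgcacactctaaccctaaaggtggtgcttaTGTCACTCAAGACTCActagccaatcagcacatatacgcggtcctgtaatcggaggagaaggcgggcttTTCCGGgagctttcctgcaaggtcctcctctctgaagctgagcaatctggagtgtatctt
Zfp958: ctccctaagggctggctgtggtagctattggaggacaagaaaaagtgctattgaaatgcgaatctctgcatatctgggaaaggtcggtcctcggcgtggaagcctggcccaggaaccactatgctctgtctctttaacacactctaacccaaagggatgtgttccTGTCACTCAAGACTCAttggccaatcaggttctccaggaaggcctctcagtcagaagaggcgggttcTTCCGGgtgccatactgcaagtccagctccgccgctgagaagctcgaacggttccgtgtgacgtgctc
The windows of Zfp943 and Zfp942 carry the same CCGGAA match, read once from each strand. The shared run tgtcactcaagactca was found in 36 of 32851 windows (0.110%), which belong to 31 genes, 29 of them on chromosome 2.

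Of the 39 genes, 37 had a mean of at least 10 normalized counts and were tested. Zfp957 stood at 10.5, 16.4 and 0.975 in het and at 0, 19.6 and 0 in KO. Zfp972 stood at 6.68, 17.4 and 19.5 in het and at 7.92, 0 and 0 in KO. Both fell under the minimum and are described no further.

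No tested gene of the name range was called in either direction at an adjusted p under 0.05 by limma. Among all 26005 genes tested, 0.431% were called higher and 0.0423% lower in KO, so a count of 0 among 37 is near the background. The smallest adjusted p was 0.335. At an unadjusted p under 0.05, 8 of the 37 were higher and 0 lower, where 4.42% of all genes were higher and 634 of the 26005 lower. edgeR and DESeq2, run on the recovered reads, called none of the 37 either. The standard errors of the log2 fold changes ran from 0.21 to 0.69 with a median of 0.29, so that a missed threshold does not show that a gene's levels were equal.

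The signs of the differences leaned to one side. The log2 fold change was positive in 30 of 37 genes and negative in 7, with a median of 0.27. Over all genes tested the median was -0.02, with 12588 of 26005 positive. For the 292 other tested protein-coding Zfp genes it was 0.10, with 179 positive. In 11 of the 37 genes (29.7%) every KO library lay above every het library, where 7.17% of all genes and 9.59% of the other Zfp genes did so. The margin was small in Zfp931, Zfp944 and Zfp959. In 0 of 37 every KO library lay below every het library, against 5.57% of all genes.

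**Figure D1:**
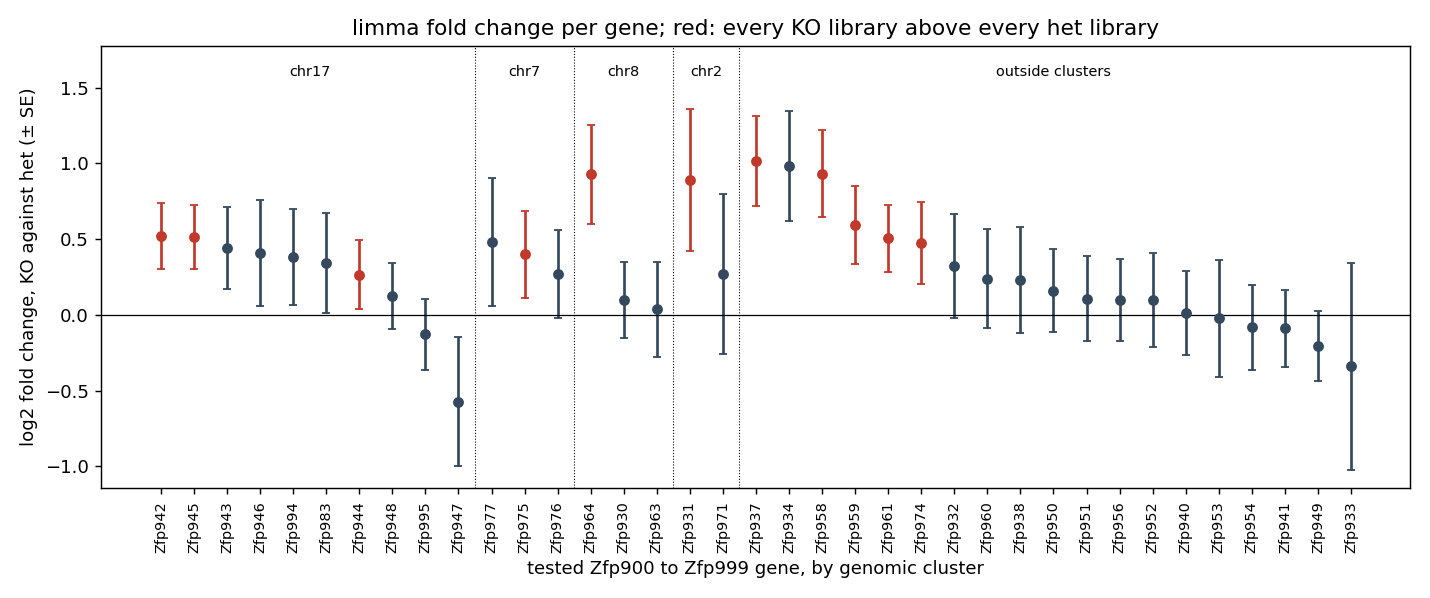
The log2 fold change of KO against het is plotted on the y axis, with its standard error, for the 37 tested genes on the x axis, grouped by genomic cluster and ordered by value within each group. Of the 37 points 30 lie above 0, and the 11 red ones are genes in which every KO library was above every het library.

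One library stood out in this lean. KO replicate 3 was the highest of the 6 libraries in 21 of 37 genes (56.8%), where it was highest in 23.7% of all genes. Its median difference from the het mean was 0.55 on the log2 scale, against 0.17 in KO replicate 1 and 0.13 in KO replicate 2. Over all genes tested these medians were 0.02, 0.02 and 0.03. The other Zfp genes gave 0.10, 0.10 and 0.15, with no such excess in KO replicate 3. The normalized counts of the 37 genes summed to 20311, 20233 and 19039 in het and to 23530, 20237 and 29585 in KO. The sum of KO replicate 2 lay within the het range, though 22 of its 37 genes were above their het mean. Without KO replicate 3 the median log2 fold change was 0.08, with 23 of 37 genes positive and 2 at an unadjusted p under 0.05. That last count also fell to 3 or 4 without any one of the het libraries or without KO replicate 1, and it was 10 without KO replicate 2.

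**Figure D2:**
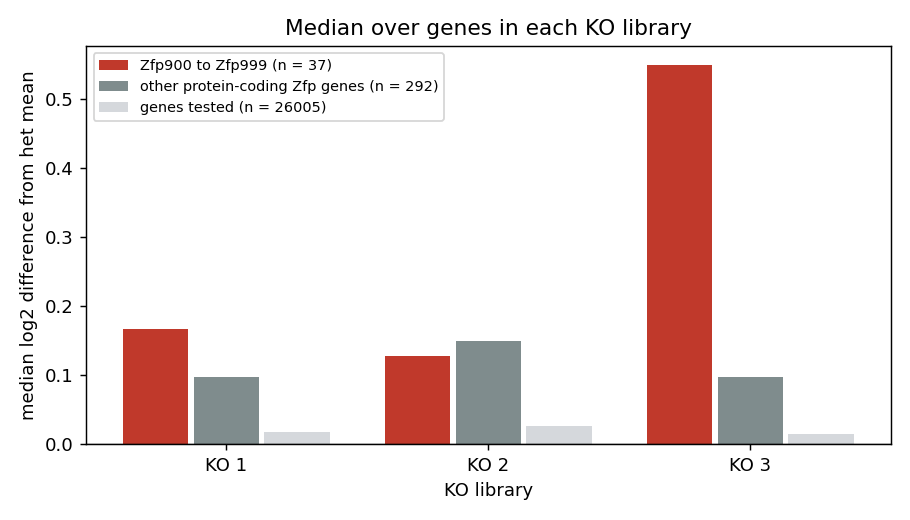
Bars give the median over genes of the log2 difference from the het mean (y axis) in each KO library (x axis), for the 37 genes of the name range, the 292 other protein-coding Zfp genes and all 26005 genes tested. The bar of KO replicate 3 for Zfp900 to Zfp999 reaches 0.55, against 0.17 and 0.13 in the other KO libraries.

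**Figure D3:**
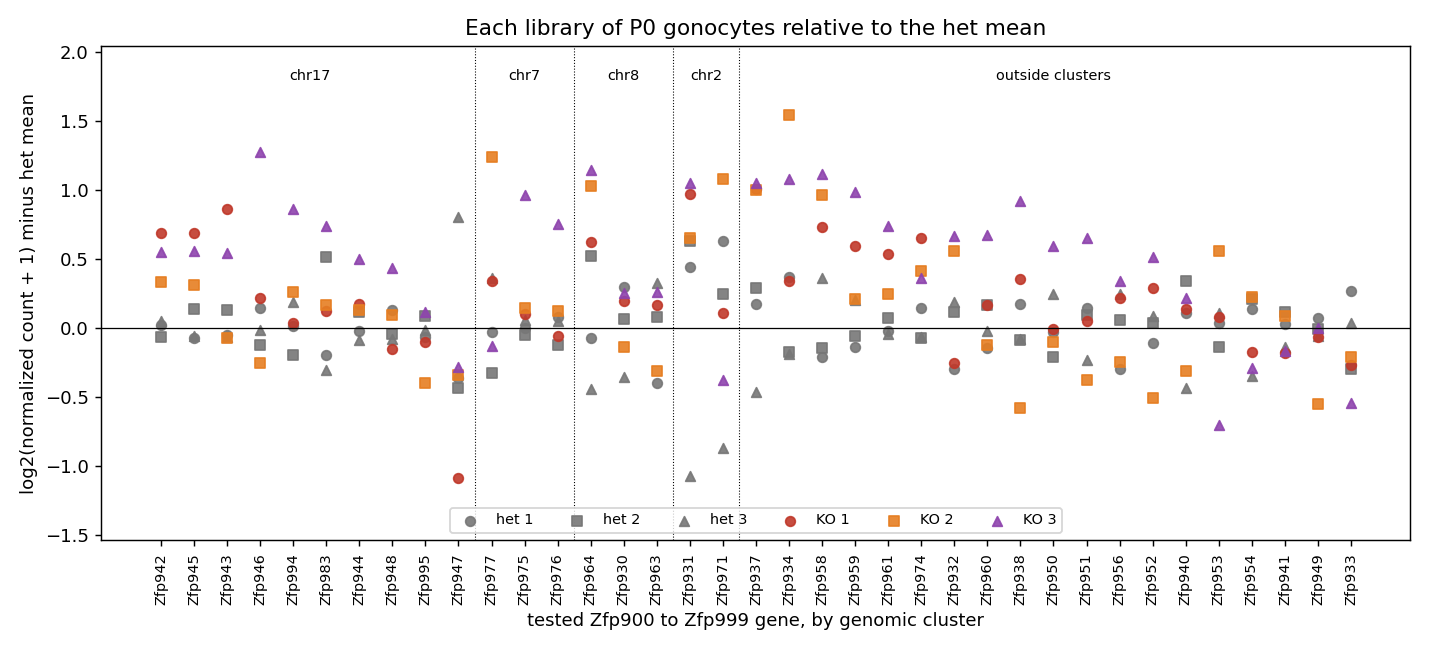
Each point is one library's log2(normalized count + 1) minus the mean of the 3 het libraries (y axis) for one tested gene (x axis), grouped by genomic cluster. The purple triangles of KO replicate 3 are the highest point in 21 of the 37 genes.

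The genes with the largest positive values lay mostly outside the clusters, which are defined below from listed genes of the name range alone. Zfp937 (chr2:150218073-150240725, plus strand, 14 fingers with a KRAB domain) stood at 172, 186 and 110 in het and at 307, 305 and 316 in KO. The KO libraries were nearly level with each other and all lay above the het libraries. The log2 fold change was 1.02 (SE 0.30, limma adjusted p = 0.335), and between 0.79 and 1.16 when any one library was left out. Zfp958 (chr8:4613167-4630231, plus strand, 13 fingers with a KRAB domain) stood at 157, 165 and 235 in het and at 304, 356 and 396 in KO. Here too the groups did not overlap, at a log2 fold change of 0.93 (SE 0.29, limma adjusted p = 0.375) that was 0.83 to 1.11 with any one library left out.

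Zfp934 (chr13:62479827-62571199, minus strand, 11 fingers with a KRAB domain) stood at 194, 132 and 131 in het and at 189, 437 and 316 in KO. KO replicate 1 lay within the het range, so the groups overlapped, at a log2 fold change of 0.98 (SE 0.36, limma adjusted p = 0.578). The gene overlaps Zfp935, which has no row in the table, and the listed pseudogene Gm7664 on the same strand. Its values are therefore uncertain to the extent that reads were split between them. Zfp959 (chr17:55892093-55898928, plus strand) stood at 699, 737 and 888 in het and at 1161, 888 and 1523 in KO, where KO replicate 2 and het replicate 3 differed by less than 1 normalized count, so that its place among the 11 genes rests on nothing measurable. The fold change was 0.59 on the log2 scale (SE 0.26, limma adjusted p = 0.704). Its nearest relative is Zfp119b, at 92.3% identity over 87.5% of the transcript. Zfp961 (chr8:71951038-71993792, plus strand) stood at 849, 904 and 834 in het and at 1245, 1023 and 1435 in KO, with no overlap and a log2 fold change of 0.50 (SE 0.22, limma adjusted p = 0.720). It overlaps Cyp4f18 on the opposite strand and Gm45694 on its own, and without known strand handling their reads cannot be told apart.

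In all, 20 of the listed genes lay outside clusters, a cluster being 3 or more of them with gaps of at most 1 Mb. Genes without a row and genes of other names were not counted, so a gene outside clusters need not be isolated. Zfp934 overlaps Zfp935, and Zfp933 (chr4:147822986-147848366) lies beside Zfp984 (chr4:147753974-147809788), which has no row. Zfp442 (chr2:150407141-150451486) lies near Zfp937. Of the 20 genes 19 were tested, with a median log2 fold change of 0.16, 14 positive and 5 negative. Zfp932, whose protein is known to bind and repress endogenous retroviruses, is named for that role after its values were seen. It stood at 125, 166 and 175 in het and at 129, 226 and 244 in KO, with overlapping groups and a log2 fold change of 0.32. Its nearest relative is Gm15446, at 97.4% identity over 70.2% of the transcript. Zfp960 was likewise close to another gene, Zfp97, at 98.8% over 99.6%, and reads of such copies may be split between them.

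The largest cluster lies on chromosome 17, where 10 listed genes span chr17:21567008-22867134, 1300 kb in all. All 10 were tested, with a median log2 fold change of 0.36, 8 positive and 2 negative. The median was 0.15 without KO replicate 3. The normalized counts of the cluster summed to 8927, 8862 and 8542 in het and to 10667, 9066 and 13393 in KO. Every KO library was above every het library for 3 of the 10, Zfp942, Zfp944 and Zfp945.

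The divergent neighbours Zfp942 and Zfp943, whose overlapping windows are printed above, gave similar fold changes. Zfp942 (chr17:21926960-21962464, minus strand, 11 fingers with a KRAB domain) stood at 775, 726 and 789 in het and at 1227, 961 and 1117 in KO. On the log2 scale the KO mean was 0.52 higher (SE 0.22, limma adjusted p = 0.683) and 0.44 to 0.62 with any one library left out. Zfp943 (chr17:21962552-22071168, plus strand, 11 fingers with a KRAB domain) stood at 875, 993 and 866 in het and at 1649, 865 and 1325 in KO. KO replicate 1 was the highest of the 6 libraries in both genes, but KO replicate 2 lay at the het level only in Zfp943. The log2 fold change of Zfp943 was 0.44 (SE 0.27, limma adjusted p = 0.844). Several annotated pseudogenes lie within Zfp943 on the opposite strand.

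Zfp945 (chr17:22846697-22867134, minus strand, 18 fingers with a KRAB domain), at the far end of the cluster, stood at 1209, 1396 and 1222 in het and at 2049, 1575 and 1869 in KO, a log2 fold change of 0.52 (SE 0.21, limma adjusted p = 0.675). Zfp944 (chr17:22337989-22361400, minus strand) stood at 747, 824 and 714 in het and at 858, 831 and 1073 in KO. KO replicate 2 exceeded het replicate 2 by a small margin, and the log2 fold change was 0.27. Zfp946 (chr17:22424222-22456689, plus strand) stood at 1406, 1163 and 1255 in het and at 1475, 1062 and 3063 in KO. KO replicate 3 lay far above all other libraries. Without it the log2 fold change of 0.41 became -0.022.

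Zfp948 (chr17:21567008-21588699, plus strand), at the near end, was the most abundant gene of the range per length. It stood at 2778, 2469 and 2396 in het and at 2289, 2703 and 3429 in KO, and its log2 fold change of 0.12 became -0.032 without KO replicate 3. The lowest value of the cluster belonged to Zfp947 (chr17:22144359-22166190, minus strand), at 104, 98.5 and 234 in het and 62.3, 105 and 110 in KO. Het replicate 3 stood apart there, and the log2 fold change was -0.57 (SE 0.43, limma adjusted p = 0.888), -0.17 without that library. Zfp947 is 93.8% identical to its cluster neighbour Zfp995 over 77.3% of its transcript, and Zfp995 had a log2 fold change of -0.13.

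**Figure D4:**
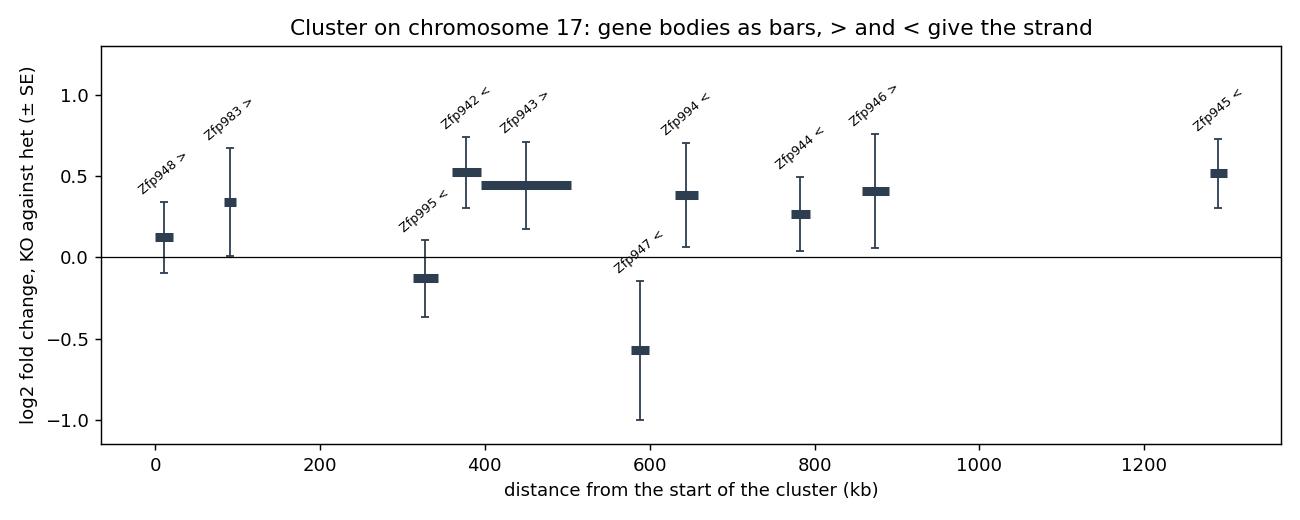
The 10 listed genes of the chromosome 17 cluster are drawn as bars along the distance from the start of the cluster in kb (x axis), at the height of their log2 fold change of KO against het with its standard error (y axis). Neighbours Zfp942 and Zfp943 lie at 0.52 and 0.44, and Zfp947 is the lowest at -0.57.

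The other 3 clusters hold 3 listed genes each. On chromosome 7 (chr7:42579783-42692742) the 3 genes lie in a row on the minus strand, with log2 fold changes of 0.48 for Zfp977, 0.27 for Zfp976 and 0.40 for Zfp975. Zfp977 (chr7:42579783-42592547) stood at 83.0, 67.6 and 109 in het and at 108, 201 and 77.4 in KO, where KO replicate 2 alone was above the het range. Zfp976 (chr7:42609526-42642588) stood at 323, 280 and 317 in het and at 293, 334 and 515 in KO. The cluster's median was 0.40, and 0.12 without KO replicate 3.

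On chromosome 8 (chr8:69209038-69749970) the genes ranged widely. Zfp964 (chr8:69654479-69666982, plus strand, 9 fingers with a KRAB domain) stood at 161, 243 and 125 in het and at 261, 346 and 376 in KO, with no overlap and a log2 fold change of 0.93 (SE 0.33, limma adjusted p = 0.527), and 0.71 to 1.19 with any one library left out. Zfp963 (chr8:69741639-69749970, minus strand) stood at 160, 224 and 266 in het and at 238, 170 and 254 in KO, a log2 fold change of 0.04 whose sign changed without any of 3 libraries. It overlaps Gm20422 on the same strand, which has no row in the table. Their transcripts match at 100% identity over 26.9% of that of Zfp963, and reads may be split between them. Zfp930 gave 0.10. The difference between the genes of this cluster was not tested. The cluster's median of 0.10 was 0.03 without KO replicate 3, 0.06 without KO replicate 1, and 0.20 to 0.25 without het replicate 1, het replicate 3 or KO replicate 2.

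On chromosome 2 (chr2:177903340-178078476) Zfp971 and Zfp931 were tested, and Zfp972 was not. Zfp931 (chr2:178067695-178078476, minus strand) stood at 96.3, 110 and 33.2 in het and at 140, 112 and 147 in KO, with a log2 fold change of 0.89 that was 0.35 without het replicate 3. Its KO libraries all lay above its het libraries, though KO replicate 2 at 111.6 was barely above het replicate 2 at 110.1. Zfp971, which also carries the 16-base run, stood at 89.6, 68.6 and 31.2 in het and at 62.3, 123 and 44.1 in KO, with a log2 fold change of 0.27. The median of the pair was 0.58, and 0.09 without het replicate 3.

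Levels differed widely between the genes. Per kb of exon, the mean normalized count over the 6 libraries ran from 2.79 to 1010, with a median of 95.2 against 127 over the protein-coding genes tested. The 6 most abundant per kb were Zfp948 at 1010, Zfp946 at 448, Zfp938 at 401, Zfp959 at 401, Zfp951 at 348 and Zfp944 at 302. Zfp938 (chr10:82224850-82241280, minus strand) stood at 844, 702 and 707 in het and at 955, 500 and 1417 in KO. Its log2 fold change of 0.23 became -0.11 without KO replicate 3. Zfp951 (chr5:104813169-104860070, minus strand) stood at 1703, 1647 and 1312 in het and at 1597, 1185 and 2424 in KO. Its log2 fold change of 0.11 became -0.17 without KO replicate 3 and -0.011 without het replicate 3. In both genes KO replicate 2 was the lowest library and KO replicate 3 the highest.

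The genes were also divided by features that the choice by name did not use. Among the 17 tested genes with CCGGAA in a promoter window 15 were positive and the median was 0.41, and the 17 without it had 0.10 with 12 positive. The ranges of the 2 sets overlapped, from -0.57 to 1.02 and from -0.21 to 0.93. Genes in clusters had a median of 0.36 (16 of 18 positive) and genes outside them 0.16 (14 of 19). As clusters were drawn from listed genes of the name range alone, the second set includes genes that lie beside other zinc finger genes. The division therefore does not separate clustered from isolated genes. Most genes of the chromosome 17 cluster carry CCGGAA, so the division by clusters and that by CCGGAA are not independent. The 23 genes with up to 11 fingers had a median of 0.23 and the 14 with more had 0.30. These are descriptions, and the differences between the sets were not tested. The 16-base run printed above gives a set that was picked after the values of Zfp937 and Zfp958 were seen. Of its 31 genes 9 are listed and tested, with none called, 7 positive and a median of 0.73 that includes those 2 genes. Outside the name range it includes Zfp442 at a log2 fold change of 1.12 and Gm14139 at 0.90 on chromosome 2, and Gm14326 at -0.37. The window of Zfp964, a gene with a log2 fold change of 0.93, does not carry the run.

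The second table counts reads on single TE copies, at their own size factors, and gives no family names. One read there stands for 0.958 to 1.12 normalized counts in het and 0.774 to 0.954 in KO. For genes it stands for 0.954 to 1.03. Within 10 kb of a gene of the name range, 189 copies had a mean of at least 10 and were tested, of which 6 (3.17%) were called higher in KO and 0 lower. Of all 49781 copies tested 15.6% were called higher and 0.735% lower. Near any tested protein-coding gene the share called higher was 5.60% (1727 of 30860), so the 6 copies do not exceed what is found beside genes at large. In the chromosome 17 cluster as a whole 8 of 102 copies were called higher, on chromosome 2 there was 1 of 23, on chromosome 8 there was 1 of 42 and on chromosome 7 there were 0 of 7.

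Of the 6 copies, 3 lie at the 3 genes with the largest fold changes. A copy of 313 bp (chr8:4612603-4612915, plus strand) ends 251 bp before the annotated start of Zfp958, just ahead of the promoter window printed above. It stood at 4.22, 4.49 and 5.75 normalized counts in het and at 30.5, 21.7 and 20.5 in KO. The 2 groups are far apart, though the het values rest on 4 to 6 reads each. On the log2 scale the copy was 2.1 higher (SE 0.65, limma adjusted p = 0.0474). The call was lost without each library except het replicate 3, with adjusted p from 0.0976 to 0.210 in the limma fits.

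Zfp937 holds a copy of 1372 bp in an intron on the opposite strand (chr2:150233088-150234459, minus strand). It stood at 7.38, 3.37 and 3.83 in het and at 46.7, 58.1 and 31.6 in KO, with a log2 fold change of 3.01 (SE 0.61, limma adjusted p = 0.00565). Without KO replicate 1 the limma adjusted p was 0.0505. At Zfp934 a copy of 2252 bp on the gene's strand (chr13:62553318-62555569, minus strand) overlaps 60 bp of annotated exon. It stood at 30.6, 32.5 and 45 in het and at 64.9, 138 and 155 in KO. KO replicate 1 was the lowest KO library at both the copy and the gene. The log2 fold change of the copy was 1.62 (SE 0.45, limma adjusted p = 0.0274), and the adjusted p was 0.0851 to 0.113 without het replicate 1, het replicate 2, KO replicate 2 or KO replicate 3. Some reads may be counted in both the gene and the copy. This was not tested.

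The 3 remaining copies lie at genes of the chromosome 17 cluster whose own values differed less. A copy of 966 bp in an intron of Zfp943 (chr17:22056150-22057115, plus strand) stood at 4.22, 4.49 and 10.5 in het and at 46.7, 19.4 and 31.6 in KO. The order of the KO libraries was the same for the gene and the copy, with KO replicate 1 highest and KO replicate 2 lowest. Its log2 fold change was 2.19 (limma adjusted p = 0.0399), and the call was lost without each library except het replicate 3. A copy of 6175 bp (chr17:22129942-22136116, minus strand) begins 8242 bp after the end of Zfp947. It stood at 12.7, 2.24 and 6.71 in het and at 40.1, 38.7 and 121 in KO, a log2 fold change of 3.06 (limma adjusted p = 0.0106, and 0.0795 without KO replicate 3), while Zfp947 itself gave -0.57. A copy of 5308 bp (chr17:21598142-21603449, plus strand) begins 9442 bp after the end of Zfp948. It stood at 8.44, 11.2 and 9.58 in het and at 54.4, 59.6 and 31.6 in KO, a log2 fold change of 2.16 (limma adjusted p = 0.0142, and 0.0851 and 0.0742 without KO replicates 1 and 2). Zfp948 itself gave 0.12. At Zfp948, Zfp937 and Zfp958 KO replicate 3 was the highest KO library for the gene and the lowest for the copy. At Zfp947 it was the highest for both. Genes with a copy called higher within 10 kb thus ran from -0.57 to 1.02, with a median of 0.69 over 6 genes, against 0.27 over the other 31. The Zfp964 locus, with a gene fold change close to that of Zfp958, had 6 tested copies and none called.

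**Figure D5:**
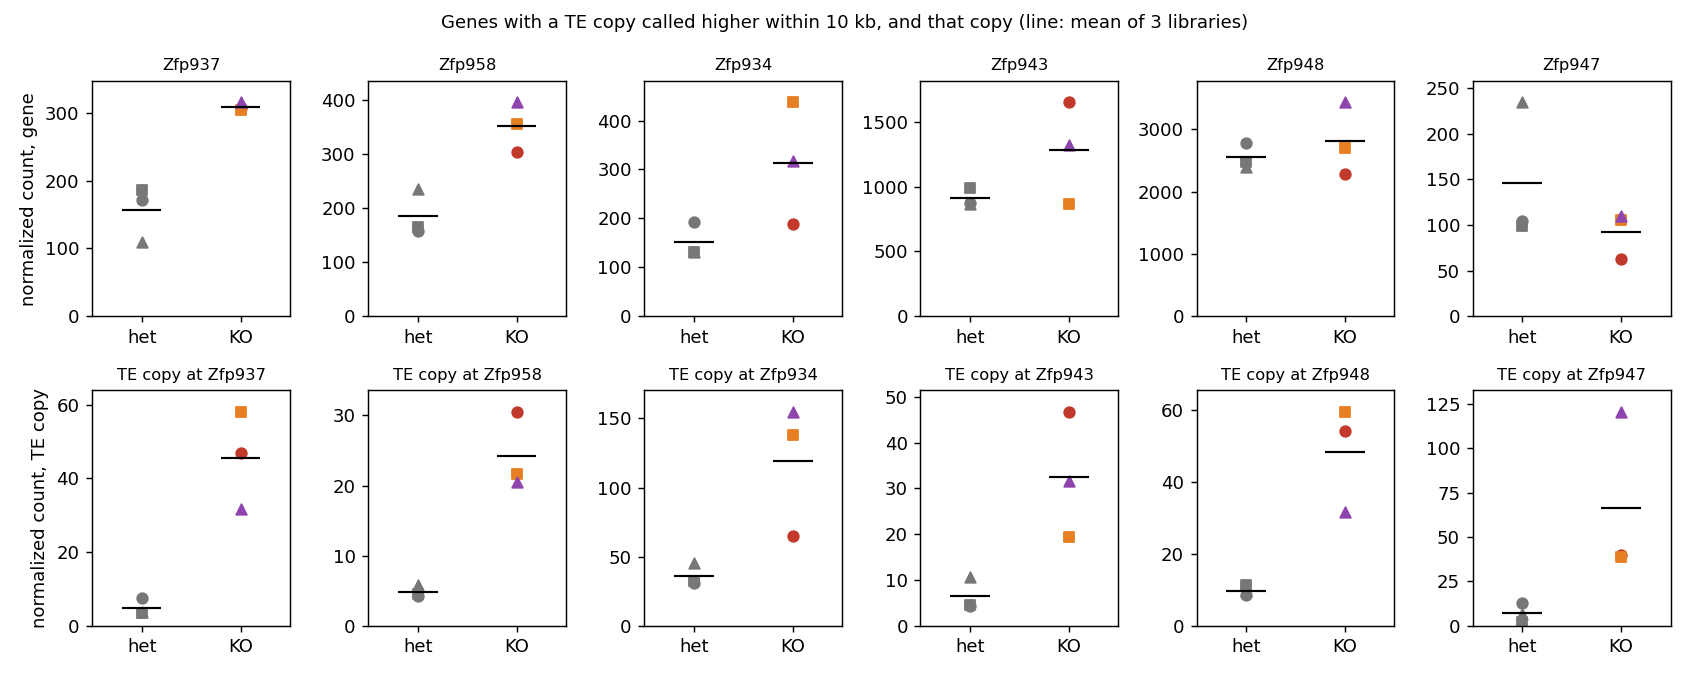
Normalized counts (y axes, from 0) are shown for the 6 genes with a TE copy called higher within 10 kb (upper row) and for that copy (lower row), with one point per library and a line at the mean of 3 libraries in het and KO. The KO libraries are above the het libraries in all 6 copies, and do not overlap with them for 2 of the 6 genes, Zfp937 and Zfp958.

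No gene was called among those whose proteins work with KRAB zinc fingers. A list of 42 genes for these partners and related silencing factors had 40 listed and 39 tested, with 26 positive and 13 negative and a median log2 fold change of 0.08. Rex2 has no row by this symbol. Tasor is a newer name of Fam208a, a subunit of the HUSH silencing complex that the list also holds by its older name, and Fam208a gave 0.35. Trim28, the corepressor that KRAB domains bind, gave 0.01, and Setdb1, the H3K9 methyltransferase it recruits, gave 0.19. At an unadjusted p under 0.05 stood 3 of the 39, all higher, near the 4.42% of all genes that were higher by this measure. Every KO library lay above every het library in 4 of the 39 (Cbx3, Cbx5, Dnmt3a and Pphln1), where 7.17% of all genes did so. Cbx5, which encodes HP1 alpha, a reader of H3K9me3, stood at 2365, 3072 and 3063 in het and at 4503, 4476 and 4693 in KO (log2 fold change 0.70, limma adjusted p = 0.301). Trim33, a relative of Trim28, gave 0.65 and Zfp445, a zinc finger gene that protects imprints, gave 0.61.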

How the data were processed

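RNA-seq libraries were made with SMART-seq v4 and TruSeq kits, per the labels' protocols. The submitters' processing notes name bcl2fastq 2.20, cutadapt 1.18, HISAT2 2.1.0, featureCounts 1.5.2 and DESeq2 1.26.0 and the build mm10/GRCm38, without roles. Strand handling and the treatment of reads with several matches are not given in the sources used here. The values of both deposited tables are a signal: the authors divided read counts by one size factor per library. In each column 100% of values were whole multiples of one step, within 0.01 of a read. No deposited column was left unmapped, and the stage of the TE columns is given only by their table's name. Het replicates 1 and 2 differed by a mean chi-square of 11.1 per gene and the other pairs of replicates by 70.7 to 107. Sampling noise alone gives about 1, so none was counted as a duplicate, but those 2 het libraries were much closer to each other than any other pair.

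Log2(value + 1) was tested for genes or copies with a mean of at least 10 using limma 3.58.1 (trend, two-sided) over the whole table, with Benjamini-Hochberg adjustment at 0.05 (R 4.3.3). A fold change on this scale understates that of low genes. Alternatives were another pseudocount, filter, variance model or scaling, a replicate block, each library left out, edgeR 4.0.16 and DESeq2 1.42.0 on the recovered reads, other cluster gaps and other distances. The limma and edgeR fits of genes were tested on simulated data, with changes larger than those of the tested genes of the name range. That test therefore does not show how well changes as small as theirs are found. Symbols, positions and exons came from GENCODE M21, and BLAST+ 2.17.0 compared transcripts. Named genes are those with an unadjusted p under 0.05, the 6 highest per kb, the highest and lowest of each cluster with 3 tested genes, and those with a called TE copy in an exon or before the start. Zfp943, which has a called copy in an intron, and the other genes named fall outside this rule and were chosen after their values were seen. The members and lists were chosen with earlier results of these data known.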

Additional observations from a re-analysis of the deposited data

How the results depend on the processing

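No gene of the name range was called under any of 16 alternatives, edgeR and DESeq2 included. The median log2 fold change stayed positive (0.08 to 0.35), and of 18 named genes (Zfp943 included, which the naming rule does not give) under 16 alternatives 280 of 288 comparisons kept their direction. The exceptions, each with a library left out, were Zfp938, Zfp946, Zfp948 and Zfp951 without KO replicate 3, Zfp951 without het replicate 3 (-0.011), and Zfp963 when het 1 (-0.17), KO 1 (-0.029) or KO 3 (-0.074) was dropped. With single libraries left out their values ran from -0.11 to 0.64 for Zfp938, -0.022 to 0.74 for Zfp946, -0.032 to 0.26 for Zfp948, -0.17 to 0.35 for Zfp951 and -0.17 to 0.21 for Zfp963. The count of genes at an unadjusted p under 0.05, which was 8, became 4 for limma without trend and 2 to 10 with single libraries left out. The cause was not tested.

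With a minimum mean of 50, which left fewer copies tested, 1 TE copy was called higher. The 6 copies became 8 at the size factors of the genes. They became 3 among the 136 copies that overlap a gene, 18 among the 373 within 50 kb, and 2 to 6 with single libraries left out. Over the alternatives 22 of 61 tests of the 6 copies lost the call and all kept the direction. The copies at Zfp943 and Zfp958 were also lost at a pseudocount of 0.1 (limma adjusted p = 0.0646 and 0.0768) and with the block (0.0712 and 0.106).

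Het and KO libraries share replicate numbers, and the sample titles do not say whether equal numbers pair them. Deviations of same-numbered libraries from their group means correlated at 0.14, -0.16 and -0.04. Those of differently numbered libraries correlated at -0.20 to 0.21. With 3 libraries per group, whose deviations cancel out, such correlations cannot decide whether the libraries are paired. With the replicate number as a block, 5 genes stood at an unadjusted p under 0.05 in limma and 5 in edgeR. The 19 genes in clusters were the same number with gaps of 500 kb and 2 Mb. The het values of 5 of the 6 called copies rest on at most 12 reads per library, which limits the precision of their fold changes.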

Other observations

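Among the 292 other tested protein-coding genes named Zfp and a number, 1 was called, where 0.431% of all genes tested were called higher. Zfp72 (chr13:74369326-74390836, minus strand) stood at 180, 147 and 86.8 normalized counts in het and at 1033, 951 and 1570 in KO, a log2 fold change of 3.12 (SE 0.34, limma adjusted p = 0.00490). Its KO libraries lay far above all het libraries, and KO replicate 3 was again the highest. At an unadjusted p under 0.05, 23 of these 292 genes (7.88%) were higher and 3 lower. Of all 26005 genes tested 4.42% were higher and 634 lower by this measure.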
